A study of Mus musculus with 18 samples.

Results

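A group of 9 genes that carry, make, hold, destroy or sense retinoic acid (Stra6, Rbp4, Crabp1, Crabp2, Aldh1a2, Dhrs3, Cyp26a1, Cyp26b1 and Rarb) were followed through the chemical reprogramming of mouse fibroblasts. They were taken by name: all 9 were found among 55401 Ensembl genes, and all 9 were among the 16439 with enough signal to be tested. RNA was sequenced in 18 libraries of 9 groups, 2 libraries a group. The groups were D2, D4, D6, D8, D10 and D12, sampled every 2 days after fibroblasts were put into reprogramming medium; riPSC, the reprogrammed stem cell line; mESC, the R1 embryonic stem cell line; and D0, the starting fibroblasts. D0 were mouse embryonic fibroblasts of passages 1 to 3, taken from E13.5 embryos of strain 129XOG2 and grown in serum. The D2 to D12 cells and riPSC bear the same strain label. OG2 mice carry a green fluorescent reporter driven by Pou5f1 sequences, and the labels name no other allele. What the reprogramming medium held is not given in the sources used here. Both stem cell lines were kept on feeder cells in a serum-free medium with LIF, CHIR99021 and PD0325901.

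Retinol travels in blood bound to the carrier RBP4 and enters cells through the membrane receptor STRA6. Inside, retinol is oxidised to retinal and then, by enzymes such as ALDH1A2, to retinoic acid, while DHRS3 turns retinal back into retinol and so draws substrate away. CRABP1 and CRABP2 bind retinoic acid in the cytosol, CYP26 enzymes oxidise it for removal, and in the nucleus it binds retinoic acid receptors such as RARB on direct repeats in DNA. Several of these genes, Rarb, Cyp26a1, Dhrs3 and Stra6 among them, are known targets of retinoic acid themselves, and retinoic acid is known for driving pluripotent cells to differentiate.

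Values are FPKM (fragments per kilobase of transcript and of sequencing depth), which correct for length and so let levels be set side by side between genes. Fold changes are differences of log2(FPKM + 1), which understates the change of a low gene. A gene was called higher or lower where limma gave a Benjamini-Hochberg adjusted p under 0.05 and the difference was at least 2-fold on that scale. "Rose" and "fell" are used of such calls alone. Nothing in the labels says that the libraries of a group came from separate cultures, so p-values measure the spread between these libraries, which may be technical. In cell mixtures such as these, a change in the number of expressing cells and a change in RNA per cell cannot be told apart.

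The libraries were uneven. Mitochondrial genes took 0.437% and 1.89% of the summed FPKM in the D0 libraries and 62.3% and 62.1% at D12. The median gene differed between replicates by 0.280 on the log2 scale in D0, 0.243 in D2 and 0.184 in D4, and by 0.0897 to 0.141 elsewhere. The files hold no counts. In single-exon genes the smallest common step of value times length was read as 1 fragment. It was 0.0204 to 0.0304 FPKM kb in 17 libraries, with 0.0204 in D2 replicate 1, and 0.0041 in D2 replicate 2. In D2 replicates 1 and 2, Lrat had 0.0806 and 0.0161 FPKM, Rdh1 0.0465 and 0.00931, and Bco1 0.0162 and 0.00325. These pairs share 1 proportion, close to that of the steps. Whether the 2 D2 files share fragments was not tested, so D2 spreads and p-values may not be those of separate libraries. Fibroblast markers summed to 710 and 1129 FPKM in D0, where Dcn was listed at 0 in replicate 1. All 7 pluripotency markers were at or above 1 FPKM in both riPSC and both mESC libraries. The D0 libraries also held myeloid markers, summing to 68.0 and 59.2 FPKM, and striated muscle markers, summing to 101 and 93.7 FPKM. In each list 3 of 4 were at or above 1 FPKM in both D0 libraries, all but Ptprc and Ttn. Neural markers summed to 105 and 88.6 FPKM in D0, from Nes and Tubb3, with Sox1 and Pax6 listed at 0. From D4 to D12 the myeloid sum was at most 1.09 FPKM. Their part in the D0 levels of the retinoid genes was not tested.

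The 9 genes did not share a single course, but among the steps their calls were most numerous from D0 to D2 and from D6 to D8. Within 2 days of the medium change 8 of the 9 stood higher than in D0 (19.5% of all genes tested), and by D4 all 9 did (21.5%). The 9 were chosen with earlier results of these data known, so such shares describe them and are not a test. No D2 call held in a fit of only the libraries compared. Between D6 and D8, 6 fell (11.3% of all genes) and 1, Cyp26a1, rose (15.1%). At the end of the course 6 of the 9 were higher than in riPSC, a line kept in another culture (16.7% of all genes). Peaks were spread: Stra6 was highest at D2, Crabp2, Dhrs3 and Rarb at D4, Rbp4, Crabp1, Aldh1a2 and Cyp26b1 at D6, and Cyp26a1 at D12.

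**Figure D1:**
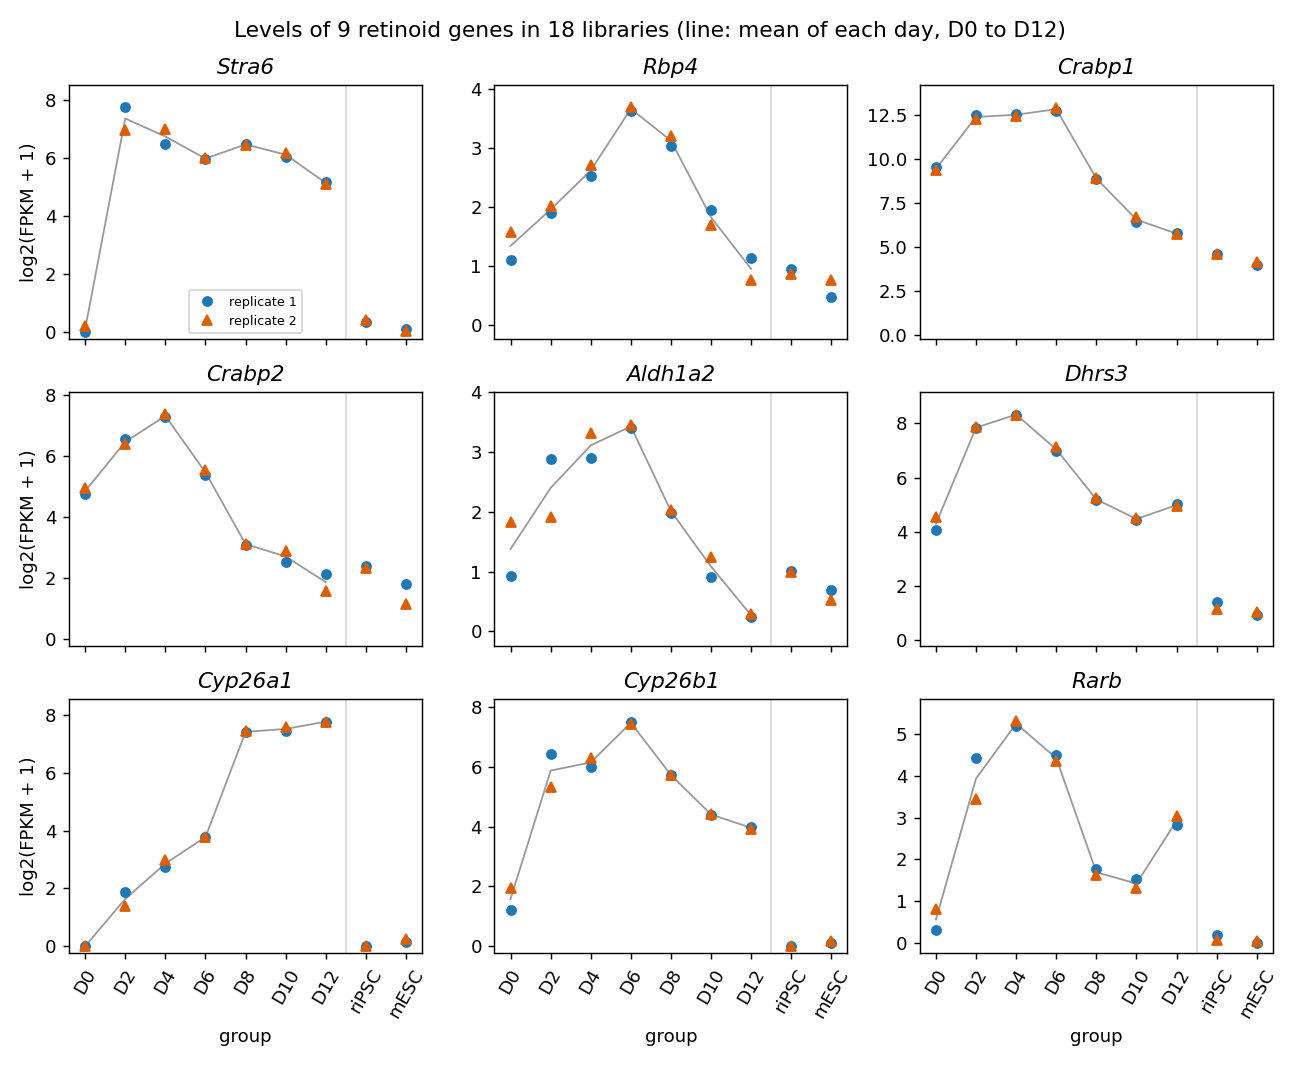
Level of each of the 9 retinoid genes, as log2(FPKM + 1), in every library of the 9 groups. Circles are replicate 1, triangles replicate 2, and the grey line joins the means of D0 to D12. Crabp1, Crabp2, Dhrs3 and Rarb were high at D2 to D6 and lower from D8, while Cyp26a1 was highest from D8 to D12; riPSC and mESC were low for each gene relative to its peak.

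The entry of retinol was represented by Stra6 and Rbp4. Stra6 (ENSMUSG00000032327, chr9:58063788-58153996, plus strand, mm10), the receptor that passes retinol through the membrane, had 215 and 126 FPKM at D2, against 0 and 0.150 FPKM in D0. It had 88.3 and 129 FPKM at D4, 62.2 and 62.8 at D6, 89.3 and 86.8 at D8, 65.5 and 72.2 at D10, and 35.0 and 33.8 at D12. Every library from D2 to D12 thus lay far above both D0 libraries, with D2 and D4 overlapping each other. The log2 fold change was 7.27 ± 0.21 (SE) at D2 against D0 (limma adjusted p = 3.8e-10) and still 5.04 ± 0.21 at D12 against D0 (limma adjusted p = 5.37e-10). With so little signal in D0 these sizes depend on the pseudocount: at D2 the value was 10.02 with a pseudocount of 0.1 and 5.06 with 5. Between D10 and D12 Stra6 missed the fold threshold, with a log2 fold change of -0.98 ± 0.21 (limma adjusted p = 0.00368). It averaged 34.4 ± 0.885 FPKM at D12 and 0.289 ± 0.0470 FPKM in riPSC (SD, n = 2 each), a log2 fold change of 4.78 ± 0.21 (limma adjusted p = 1.08e-09). Stra6 overlaps Ccdc33 on the opposite strand, which was listed at 0 to 5.19 FPKM over the libraries; whether counting used strand is not given in the sources used here, so reads from the shared stretch cannot be told apart.

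Rbp4 (ENSMUSG00000024990, chr19:38116629-38125281, minus strand), the retinol carrier that liver secretes, stayed at a far lower level than Stra6 and climbed more slowly. It had 11.4 and 12.05 FPKM at D6, against 1.14 and 1.98 FPKM in D0. The values in between were 2.72 and 3.05 FPKM at D2 and 4.77 and 5.57 FPKM at D4, and those that followed were 7.22 and 8.29 at D8, 2.87 and 2.24 at D10, and 1.20 and 0.684 at D12. All libraries from D2 to D10 lay above both D0 libraries, the lower D10 library by little, and D12 overlapped D0. Rbp4 was called higher than in D0 at D4 (log2 fold change 1.28 ± 0.18), D6 (2.33 ± 0.18, limma adjusted p = 3.41e-07) and D8 (1.79 ± 0.18), but not at D2 (0.62 ± 0.18, limma adjusted p = 0.0107). It rose at D6 against D4 (1.05 ± 0.18) and fell at D10 against D8, by 1.30 on the log2 scale (limma adjusted p = 0.00047). Of these calls only that of D6 against D0 held under every setting tried. With a pseudocount of 5, the values were 0.63 at D4 and 0.96 at D8 against D0, 0.72 at D6 against D4 and -0.76 at D10 against D8, none of them called. Quantile normalization ended the calls at D4 (0.58) and D8 (0.64) against D0 and at D6 against D4 (0.82). Median-of-ratios scaling ended those of D4 against D0 (0.92) and D6 against D4 (0.996), a fit of only the libraries compared ended that of D4 against D0, and leaving out D4 replicate 1 ended that of D6 against D4 (0.96).

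The binding proteins gave the highest levels of the 9. Crabp1 (ENSMUSG00000032291, chr9:54764748-54773110, plus strand) had 5802 and 4851 FPKM at D2, 6009 and 5571 at D4, and 6807 and 7654 at D6, against 730 and 652 FPKM in D0. It ranked 8 and 13 among all genes of the D2 libraries, 4 and 5 at D4, and 5 and 4 at D6, compared with 127 and 144 in D0. The D2, D4 and D6 libraries all lay above those of D0, with D2 and D4 overlapping. The log2 fold change against D0 was 2.94 ± 0.13 at D2 (limma adjusted p = 6.73e-09) and 3.38 ± 0.13 at D6 (limma adjusted p = 1.55e-09).

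Crabp1 then fell further than any other of the 9 between D6 and D8. It had 459 and 482 FPKM at D8, against 6807 and 7654 FPKM at D6, a log2 fold change of -3.94 ± 0.13 (limma adjusted p = 1.49e-10). It fell again at D10, to 84.1 and 101 FPKM against 459 and 482 FPKM at D8 (log2 fold change -2.34 ± 0.13, limma adjusted p = 9.13e-07). At D12 it had 53.5 and 51.7 FPKM, against 730 and 652 FPKM in D0 (log2 fold change -3.69 ± 0.13, limma adjusted p = 8.21e-11). The D12 values still lay above those of riPSC, at 22.9 and 23.3 FPKM, a log2 fold change of 1.15 ± 0.13; that call was lost, at 0.78, when mitochondrial genes were left out of the scaling.

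Crabp2 (ENSMUSG00000004885, chr3:87948666-87953376, plus strand), which also carries retinoic acid to the receptors, peaked earlier and lower. It had 91.5 and 81.9 FPKM at D2 and 152 and 162 FPKM at D4, against 25.7 and 29.7 FPKM in D0. It had 40.3 and 45.4 FPKM at D6, 7.47 and 7.70 at D8, 4.68 and 6.39 at D10, and 3.38 and 1.98 at D12. Crabp2 rose at D4 against D0 (log2 fold change 2.47 ± 0.22, limma adjusted p = 2.5e-06), fell at D6 against D4 (-1.85 ± 0.22, limma adjusted p = 2.86e-05), and fell again at D8 against D6 (-2.35 ± 0.22, limma adjusted p = 1.99e-06). Crabp1 was therefore at its highest on a day when Crabp2 had already fallen. The ratio of Crabp1 to Crabp2 FPKM was 169 ± 0.300 at D6, 36.9 ± 3.67 at D4 and 25.2 ± 4.56 in D0 (mean ± SD, n = 2 each), and the D6 ratios lay above all others.

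Aldh1a2, 1 of the enzymes that make retinoic acid, and its counterweight Dhrs3 were both higher early, at very different levels. Dhrs3 (ENSMUSG00000066026, chr4:144892827-144928209, plus strand), which reduces retinal to retinol, had 227 and 232 FPKM at D2 and 321 in each library at D4, against 15.6 and 22.0 FPKM in D0. It had 124 and 138 FPKM at D6, 34.8 and 36.4 at D8, 20.4 and 21.7 at D10, and 31.6 and 29.6 at D12. The D2 to D6 libraries lay well above D0, and those of D10 overlapped it. The log2 fold change was 3.56 ± 0.14 at D2 against D0 (limma adjusted p = 3.17e-09) and 4.04 ± 0.14 at D4 against D0 (limma adjusted p = 1.51e-09). Dhrs3 fell in both steps that followed, by 1.29 on the log2 scale at D6 against D4 (limma adjusted p = 1.54e-05) and by 1.85 at D8 against D6 (limma adjusted p = 3.42e-07).

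Aldh1a2 (ENSMUSG00000013584, chr9:71215789-71296243, plus strand), the enzyme that makes retinoic acid in much of the embryo, never passed 10 FPKM. It had 6.37 and 2.77 FPKM at D2, 6.49 and 8.93 at D4, and 9.54 and 9.96 at D6, against 0.905 and 2.54 FPKM in D0. The D4 and D6 libraries lay clear of D0, whereas the lower D2 library was close to the higher D0 library. The log2 fold change against D0 was 1.73 ± 0.30 at D4 (limma adjusted p = 0.000425) and 2.05 ± 0.30 at D6 (limma adjusted p = 6.23e-05). At D2 it was called at 1.02 ± 0.30 (limma adjusted p = 0.0129), a call lost without D2 replicate 1 (0.54), without D0 replicate 1 (0.57) and under 6 other settings; the D4 call was lost with quantile normalization (0.98), with a pseudocount of 5 (0.92) and with only the libraries compared.

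Aldh1a2 fell at D8, to 2.96 and 3.09 FPKM against 9.54 and 9.96 FPKM at D6 (log2 fold change -1.42 ± 0.30, limma adjusted p = 0.00155); with a pseudocount of 5 it was -0.88 and not called. At D12 it had 0.181 and 0.228 FPKM, under the 1.00 and 0.989 FPKM of riPSC, a difference that was not called (limma adjusted p = 0.0509). The fall at D12 against D0 (-1.11 ± 0.30) was lost without D0 replicate 2 (-0.66), with a pseudocount of 5 (-0.36) and with only the libraries compared in the fit. Dhrs3 exceeded Aldh1a2 in every library: the ratio of their FPKM was 42.7 ± 9.53 at D4, 13.4 ± 0.620 at D6, 153 ± 31.7 at D12 and 1.41 ± 0.281 in riPSC (mean ± SD, n = 2 each). The D12 ratio rests on Aldh1a2 values near 0 and does not stand for all synthesis. Aldh1a1 and Aldh1a3, which also make retinoic acid, had 43.0 and 43.7 FPKM and 3.08 and 3.34 FPKM at D12.

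The breakdown enzymes changed places between D6 and D8. Cyp26b1 (ENSMUSG00000063415, chr6:84571414-84593908, minus strand) was the early form. It had 84.8 and 39.1 FPKM at D2, 62.3 and 78.4 at D4, and 182 and 172 at D6, against 1.28 and 2.88 FPKM in D0. The D6 libraries stood above all others, and D2 overlapped both D4 and D8. The log2 fold change against D0 was 4.30 ± 0.29 at D2 (limma adjusted p = 3.08e-07) and 5.90 ± 0.29 at D6 (limma adjusted p = 1.29e-08).

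At D8 Cyp26b1 fell to 52.3 and 51.5 FPKM, against 182 and 172 FPKM at D6 (log2 fold change -1.75 ± 0.29, limma adjusted p = 0.000261). At D10 it had 19.8 and 20.5 FPKM, against 52.3 and 51.5 FPKM at D8. That step was called (log2 fold change -1.32 ± 0.29, limma adjusted p = 0.0121), but the call was lost when any 1 of its 4 libraries was left out, with the fold changes between -1.30 and -1.35. At D12 it had 14.9 and 14.2 FPKM.

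Cyp26a1 (ENSMUSG00000024987, chr19:37697798-37701536, plus strand), the form that retinoic acid induces in many cell types, was listed at 0 in both D0 libraries. It had 2.67 and 1.65 FPKM at D2, 5.74 and 6.86 at D4, and 12.9 and 12.6 at D6. It then stood at 168 and 173 FPKM at D8, 175 and 192 at D10, and 218 in each library at D12. No fold is given against D0, since a listed 0 may be a failed estimate; limma called Cyp26a1 higher than D0 on all 6 days, with an adjusted p of 1.69e-06 at D2 and 2.04e-13 at D12. The D2 call was lost with a pseudocount of 5. Among the 5 steps from D2 on, the largest was D8 against D6, a log2 fold change of 3.64 ± 0.14 (limma adjusted p = 5.09e-10). Neither D10 against D8 (0.10 ± 0.14) nor D12 against D10 (0.25 ± 0.14) was called.

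The ratio of Cyp26a1 to Cyp26b1 FPKM was 0.0368 ± 0.00751 at D2, 0.0898 ± 0.00330 at D4 and 0.0720 ± 0.00168 at D6. It was 3.29 ± 0.0998 at D8, 9.09 ± 0.361 at D10 and 15.0 ± 0.492 at D12 (mean ± SD, n = 2 each). Cyp26b1 was thus 13.9 ± 0.324 times as abundant as Cyp26a1 at D6, and Cyp26a1 the more abundant in all 6 libraries from D8 on. Cyp26c1, the third member of the family and one of the other pathway genes described further on, had 9.38 and 8.96 FPKM at D8, against 0.651 and 0.787 FPKM at D6 (log2 fold change 2.57 ± 0.11, limma adjusted p = 1.41e-09). It stayed well under Cyp26a1.

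**Figure D2:**
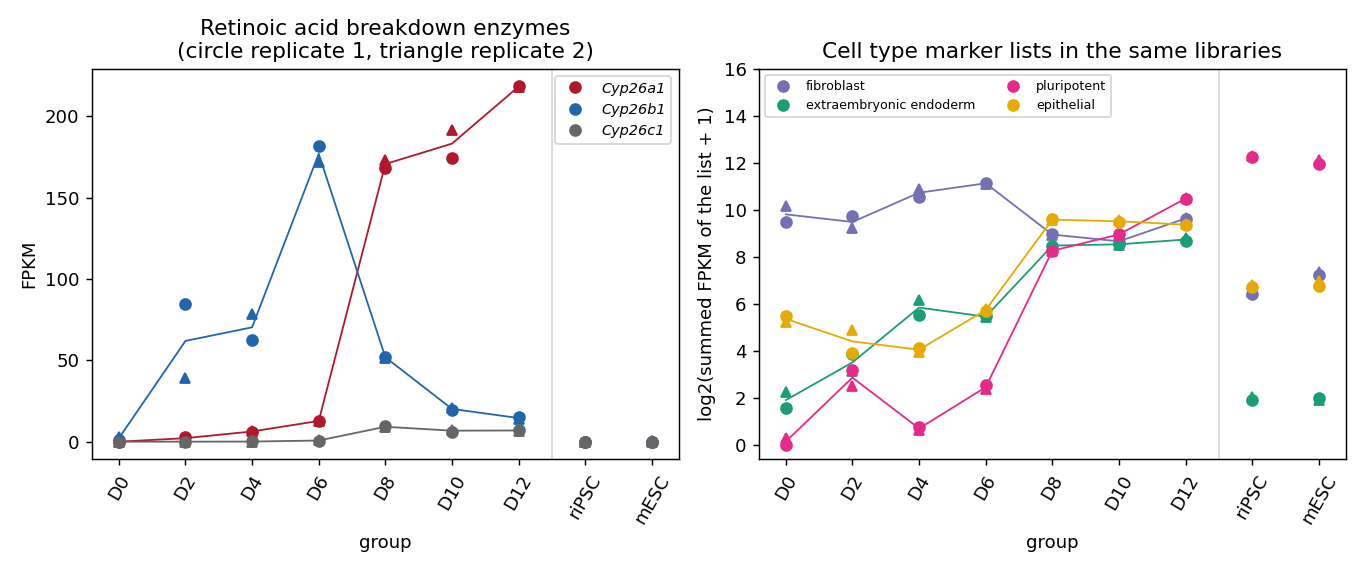
Left, FPKM of Cyp26b1, Cyp26a1 and Cyp26c1 in every library; right, summed FPKM of 4 marker lists on a log2 scale. Circles are replicate 1, triangles replicate 2, and lines join the means of D0 to D12. Cyp26b1 peaked at D6 at 182 and 172 FPKM, Cyp26a1 was at 168 and 173 FPKM at D8, and the endoderm, epithelial and pluripotency lists stepped up in the same interval.

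Marker lists of other cell types moved in that same interval. Extraembryonic endoderm markers summed to 356 and 357 FPKM at D8 against 44.0 and 42.3 FPKM at D6, with 7 of 8 at or above 1 FPKM in each D8 library against 5 and 6 of 8 at D6. Of these, Afp had 0.199 FPKM in 1 D8 library and was listed at 0 in the other. Epithelial markers (4 of 4 at or above 1 FPKM on both days) summed to 770 and 764 FPKM at D8 against 51.2 and 54.1 FPKM at D6. Pluripotency markers summed to 306 and 306 FPKM at D8 against 4.89 and 4.2 FPKM at D6, and 6 of 7 were at or above 1 FPKM in each D8 library, all but Nanog. Fibroblast markers summed to 496 and 491 FPKM at D8 against 2257 and 2215 FPKM at D6. Pdgfra of this list went the other way, with 108 and 102 FPKM at D8 against 88.9 and 82.2 FPKM at D6. All others of the list were lower at D8. The part of these cell types in the fall of the 6 genes or in the rise of Cyp26a1 was not tested. In riPSC the endoderm markers summed to 2.76 and 3.15 FPKM.

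Rarb (ENSMUSG00000017491, chr14:16430839-16819156, minus strand), a retinoic acid receptor whose own promoter responds to the ligand, had an early and a late rise. It had 20.5 and 9.93 FPKM at D2 and 35.7 and 38.6 FPKM at D4, against 0.250 and 0.754 FPKM in D0. It had 21.6 and 19.4 FPKM at D6, 2.41 and 2.07 at D8, 1.89 and 1.49 at D10, and 6.06 and 7.21 at D12. The D4 libraries were the highest, D2 overlapped D6, and the D12 libraries stood apart from those of D8 and D10. The log2 fold change was 3.37 ± 0.25 at D2 against D0 (limma adjusted p = 6.18e-07) and 4.69 ± 0.25 at D4 against D0 (limma adjusted p = 3.15e-08).

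Rarb fell by 2.73 on the log2 scale at D8 against D6 (limma adjusted p = 1.54e-06) and rose at D12 against D10 (1.51 ± 0.25, limma adjusted p = 0.000533). With a pseudocount of 5 the late rise was 0.80 and no longer called. The D8 level was called higher than D0 (1.13 ± 0.25, limma adjusted p = 0.00117), but 5 settings ended the call. It was -0.07 with quantile normalization, 0.20 with the length trend removed, 0.85 with median-of-ratios scaling, 0.40 with a pseudocount of 5 and 0.88 without D0 replicate 1. Rarb overlaps Top2b on the opposite strand, which had 3.12 to 14.5 FPKM over the libraries, and the same limit on strand applies.

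Promoter sequences from RefSeq (GRCm38.p6, 250 bases before to 50 after each start) were on hand for 8 of the 9 genes, all but Crabp2, in 14 promoters. They were searched on both strands for retinoic acid response elements written as direct repeats: a pair of half-sites with 1, 2 or 5 bases between them. A half-site could read AGGTCA, which is the consensus form, and AGTTCA was accepted as well. The variants GGGTCA and, as the last one searched, GGTTCA were accepted too. A repeat with a spacer of 5 stood in the promoters of Cyp26a1 and Rarb, which are shown for that reason. The half-sites are in capitals. In Cyp26a1 (chr19:37697756-37697807, plus strand) the repeat lies on the opposite strand, so that AGTTCA reads as TGAACT, from position -32 to -16 relative to the start. In Rarb (chr14:16575493-16575549, minus strand, printed along the gene) it lies on the gene's own strand, from -53 to -37.
Cyp26a1: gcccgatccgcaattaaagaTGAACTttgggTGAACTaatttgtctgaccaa
Rarb: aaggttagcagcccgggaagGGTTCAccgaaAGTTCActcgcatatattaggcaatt
Of 32851 promoters in the table, 32 (0.0974%) held a repeat with a spacer of 5 and 193 (0.588%) one with any of the 3 spacers. No promoter of the 8 genes held one with a spacer of 1 or 2, which occurred in 0.222% and 0.268% of all promoters. Neither match holds the consensus AGGTCA: that of Rarb needed GGTTCA and AGTTCA to be accepted, and that of Cyp26a1 needed AGTTCA. The matches thus depend on the forms listed, and setting them beside the share of all promoters is not a test. A match describes the letters in this window only. Cyp26a1 and Rarb did not share a course: both rose at D4 against D2, but between D6 and D8 Cyp26a1 rose and Rarb fell.

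Counted over the 9 genes, the comparisons with D0 share the same 2 D0 libraries and are not independent of one another. Because the genes were chosen with earlier results of these data known, shares and medians of all genes are given for scale only. Against D0, 8 of 9 were called higher at D2 and none lower, where 19.5% of all genes tested were called higher and 4.63% lower. At D4 all 9 were higher and none lower (21.5% and 4.79% of all genes). At D6, 8 were higher and none lower (32.8% and 8.79% of all genes), with Crabp2 the exception. The median log2 fold change of the 9 was 2.94 at D2, 3.07 at D4 and 3.38 at D6, against 0.24, 0.37 and 0.50 over all genes. With Cyp26a1, which was listed at 0 in D0, placed above the rest, the medians were 3.37, 4.04 and 3.38. With only the 4 libraries compared in the fit, 2 residual degrees of freedom remained in place of 9. None of the 9 was then called at D2, and 88 genes were called in all. In fits of the same size, 7 of the 9 were called at D4 (1792 genes in all) and 8 at D6 (5795 genes in all). The fit over 18 libraries takes its spread from all groups, and D0 and D2 had the widest spread between replicates.

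From D8 the count against D0 was no longer one-sided. At D8, 5 were higher and 1, Crabp2, lower (40.6% and 11.8% of all genes). At D10, 3 were higher, Stra6, Cyp26a1 and Cyp26b1, and 2 lower, Crabp1 and Crabp2 (39.1% and 13% of all genes). At D12, 4 were higher, Stra6, Cyp26a1, Cyp26b1 and Rarb, and 3 lower, Crabp1, Crabp2 and Aldh1a2 (38% and 13.8% of all genes). The medians of the 9 were 1.13, 0.49 and 0.69 on these days, against 0.68, 0.63 and 0.56 over all genes. The shares called higher were close to those of all genes tested, so these counts set the 9 genes apart little. Quantile normalization gave 3 higher and 1 lower at D8, 3 and 3 at D10 and 4 and 4 at D12, and median-of-ratios scaling gave 4 higher and 2 lower at D8.

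Relative to D0, long genes stood higher than short ones at D2, D8 and D12 and in riPSC. At D8 the median log2 fold change against D0 was 0.99 in genes of 4000 to 8000 exonic bases and 0.10 in those of 1000 to 2000 bases. Stra6, Cyp26b1 and Rarb have 5829, 5352 and 5265 exonic bases. With the length trend removed, their log2 fold changes at D12 against D0 were 4.17, 1.58 and 1.57, instead of 5.04, 2.38 and 2.36. All 3 were still called.

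Of the 5 steps from D2 on, D6 to D8 held the most called changes. At D4 against D2, 2 of the 9 were higher, Cyp26a1 (log2 fold change 1.22 ± 0.14) and Rarb (1.31 ± 0.25), and none lower (5.66% and 4.48% of all genes). With a pseudocount of 5 Cyp26a1 was no longer called (0.66), and with only the libraries compared neither was. Without D2 replicate 2, these were 0.99 and 0.83 and neither was called, while Stra6 was, at -1.004; of the 9 genes, 7 were higher in D2 replicate 1 than in D2 replicate 2, by a ratio of up to 2.30 for Aldh1a2. At D6 against D4, 2 were higher, Rbp4 and Cyp26b1 (1.33 ± 0.29), and 2 lower, Crabp2 and Dhrs3 (11.6% and 6.86% of all genes). Median-of-ratios scaling and quantile normalization each gave 1 higher and 2 lower in that step, and leaving mitochondrial genes out of the scaling gave 3 and 2.

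At D8 against D6, 1 was higher, Cyp26a1, and 6 lower, Crabp1, Crabp2, Aldh1a2, Dhrs3, Cyp26b1 and Rarb, where 15.1% of all genes were called higher and 11.3% lower. Over the 9 genes the median change was -1.75 on the log2 scale, against 0.08 over all genes. The same split of 1 and 6 was found under each scaling and with the D0, D2 and D4 libraries left out of the fit. A pseudocount of 5 gave 1 and 5, without Aldh1a2. Stra6 (0.49 ± 0.21) and Rbp4 (-0.54 ± 0.18) were not called. At D10 against D8 none was higher and 3 were lower, Rbp4, Crabp1 and Cyp26b1 (0.426% and 2.43% of all genes). At D12 against D10, 1 was higher, Rarb, and none lower (6.01% and 4.68% of all genes); with mitochondrial genes left out of the scaling, 1 was higher and 4 lower, Stra6, Rbp4, Crabp1 and Crabp2.

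**Figure D3:**
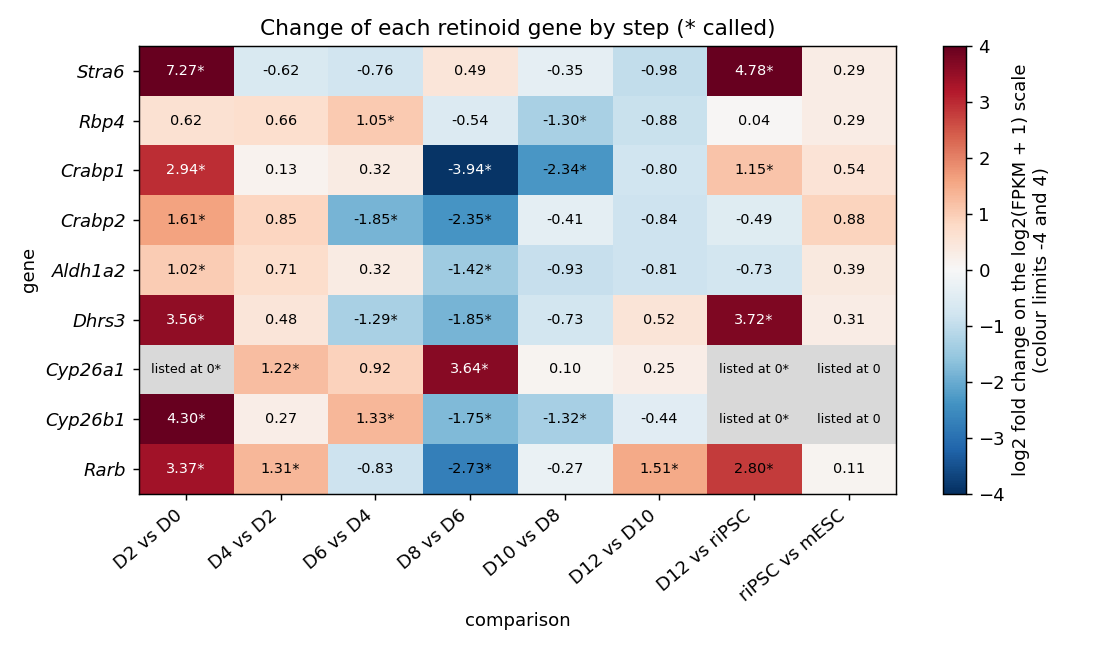
Log2 fold change of each gene, on the log2(FPKM + 1) scale, in each step of the course, at D12 against riPSC and in riPSC against mESC; red is higher and blue lower in the first group named, and an asterisk marks a call. Grey cells are comparisons in which 1 group was listed at 0. The D8 against D6 column holds 6 called falls beside the rise of Cyp26a1 by 3.64.

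The last day was compared with the established line. The riPSC were kept on feeder cells in a serum-free medium, whereas the D12 cells were sampled from the reprogramming course. Effects of culture and of reprogramming cannot be told apart in this comparison. At D12, 6 of the 9 genes were higher than in riPSC and none lower, where 16.7% of all genes were called higher and 19.8% lower. The 9 genes had a median change of 2.80 on the log2 scale, against -0.06 over all genes. Cyp26a1 had 218 FPKM in each D12 library and was listed at 0 in both riPSC libraries (limma adjusted p = 2.74e-13). Cyp26b1 had 14.9 and 14.2 FPKM at D12 and was likewise listed at 0 in riPSC (limma adjusted p = 1.22e-07). Dhrs3 had 31.6 and 29.6 FPKM at D12, against 1.61 and 1.20 FPKM in riPSC (log2 fold change 3.72 ± 0.14, limma adjusted p = 2.47e-10). Rarb had 6.06 and 7.21 FPKM at D12, against 0.133 and 0.0562 FPKM in riPSC (2.80 ± 0.25, limma adjusted p = 6.98e-07). Stra6 and Crabp1 were the others called. Rbp4 (0.04 ± 0.18), Crabp2 (-0.49 ± 0.22) and Aldh1a2 (-0.73 ± 0.30) were not.

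The D12 libraries differed from riPSC in cell type markers too. Extraembryonic endoderm markers summed to 414 and 440 FPKM at D12 against 2.76 and 3.15 FPKM in riPSC, and fibroblast markers to 785 and 802 FPKM at D12 against 84.1 and 89.4 FPKM in riPSC. Pluripotency markers summed to 1409 and 1447 FPKM at D12 against 4787 and 5057 FPKM in riPSC. Most of the D12 sum was Dppa5a (776 and 784 FPKM) and Pou5f1 (528 and 558 FPKM). Nanog had 1.76 FPKM in each D12 library against 273 and 275 FPKM in riPSC, and Sox2 3.80 and 3.86 FPKM against 234 and 257 FPKM. Their part in the difference was not tested.

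Against D0, none of the 9 was higher in riPSC and 4 were lower (40.1% and 13% of all genes). Crabp1 had 22.9 and 23.3 FPKM in riPSC, against 730 and 652 FPKM in D0 (log2 fold change -4.84 ± 0.13, limma adjusted p = 7.68e-12). Crabp2 (-2.49 ± 0.22) and Dhrs3 (-3.03 ± 0.14) were lower as well, and Cyp26b1 was listed at 0 in both riPSC libraries, against 1.28 and 2.88 FPKM in D0, a call lost with a pseudocount of 5. The median of the 9 was -0.44 against 0.62 over all genes, or -1.46 with Cyp26b1 placed below the rest and Cyp26a1, listed at 0 in both groups, left out. Quantile normalization called 7 of the 9 lower, among 7200 genes called in either direction.

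riPSC and mESC were both low for these genes. None of the 9 was called higher or lower in riPSC than in mESC by limma (1.84% and 1.2% of all genes were); 2 had an unadjusted p under 0.05. These were Crabp1, with 22.9 and 23.3 FPKM in riPSC against 14.4 and 16.8 FPKM in mESC (log2 fold change 0.54 ± 0.13, limma adjusted p = 0.015), and Crabp2, with 4.17 and 4.01 FPKM in riPSC against 2.50 and 1.18 FPKM in mESC (0.88 ± 0.22, limma adjusted p = 0.0203), both under the fold threshold. Crabp2 was called without mESC replicate 1, at 1.22. Cyp26a1 was listed at 0 in both riPSC libraries and had 0.105 and 0.197 FPKM in mESC. Rarb had 0.133 and 0.0562 FPKM in riPSC, and 0 and 0.0305 FPKM in mESC. Both lines grew on feeders, and fibroblast markers summed to 84.1 and 89.4 FPKM in riPSC and 149 and 162 FPKM in mESC; their part in the Crabp1 level was not tested.

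Around the 9 genes stand 51 others of the same pathway, of which 42 had enough signal to be tested. At D2 against D0, 10 were higher and 2 lower (19.5% and 4.63% of all genes), and none of the 13 enzymes that interconvert retinol, retinal and retinoic acid was called. Of 6 cofactors 5 were higher, among them the corepressor Ncor1 (9.62 ± 5.23 FPKM at D2 and 2.06 ± 1.08 FPKM in D0; SD, n = 2 each). Nrip1, a corepressor that retinoic acid is known to induce, had 2.70 ± 1.86 FPKM at D2 and was listed at 0 in D0. Meis2, a homeobox gene that responds to retinoic acid in the limb, had 19.7 ± 9.84 FPKM at D2 and 2.12 ± 0.536 FPKM in D0 (log2 fold change 2.65 ± 0.26, limma adjusted p = 5.93e-06). Ppard, a nuclear receptor for fatty acids, had 12.7 ± 1.46 FPKM at D2 and 2.68 ± 2.02 FPKM in D0. With median-of-ratios scaling 8 of the 42 were higher and 6 lower at D2, and with only the 4 libraries compared none was called.

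Against D0, 17 were higher and 1 lower at D4 (21.5% and 4.79% of all genes), and 16 higher and 2 lower at D6 (32.8% and 8.79% of all genes). Median-of-ratios scaling gave 11 and 2 at D4 and 10 and 4 at D6. Nr2f2, an orphan nuclear receptor that retinoic acid is known to induce, had 11.8 ± 1.64 FPKM at D4 and 2.02 ± 0.370 FPKM in D0. Ncoa1, a coactivator, had 3.85 ± 0.739 FPKM at D4 and 0.329 ± 0.102 FPKM in D0. Tgm2, a transglutaminase that retinoic acid is known to induce, had 19.4 ± 0.0935 FPKM at D6 and 3.74 ± 1.71 FPKM in D0.

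At D4 against D2, 6 of the 42 were higher and 2 lower (5.66% and 4.48% of all genes). Median-of-ratios scaling gave 3 and 2. At D6 against D4, 3 were higher and 4 lower (11.6% and 6.86% of all genes). Adh1, an alcohol dehydrogenase that oxidises retinol, had 9.94 ± 0.975 FPKM at D4 and 0.832 ± 0.00243 FPKM at D2. Rdh5, a retinol dehydrogenase, had 4.41 ± 0.705 FPKM at D4 and 13.0 ± 0.999 FPKM at D2. Fabp5, a fatty acid-binding protein that also carries retinoic acid, rose at D4, with 189 ± 8.00 FPKM against 55.7 ± 2.81 FPKM at D2, and fell at D6, to 65.9 ± 3.06 FPKM.

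At D8 against D6, when 6 of the 9 fell, 12 of the 42 were higher and 6 lower (15.1% and 11.3% of all genes), and their median change was 0.07 on the log2 scale. Of the 13 enzymes 5 were higher and none lower, and of the 6 receptors none was higher and 3 lower. Adh1 had 105 ± 3.14 FPKM at D8 and 6.84 ± 0.247 FPKM at D6 (log2 fold change 3.76 ± 0.10, limma adjusted p = 4.71e-11). Aldh1a3, a second enzyme that makes retinoic acid, had 8.49 ± 0.479 FPKM at D8 and 0.724 ± 0.0200 FPKM at D6. Lrp2, the endocytic receptor megalin that takes up retinol bound to RBP4, had 11.1 ± 0.687 FPKM at D8 and 0.194 ± 0.0471 FPKM at D6.

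Rarg, named after its values were seen as the most abundant retinoic acid receptor at D6, had 5.75 and 5.58 FPKM at D8, against 23.2 FPKM in each library at D6 (log2 fold change -1.86).

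In the later steps the changes were fewer. At D10 against D8 none of the 42 was higher and 4 were lower (0.426% and 2.43% of all genes), among them Fabp5, Adh7 (an alcohol dehydrogenase of epithelia) and Meis2. At D12 against D10, 3 were higher and 3 lower (6.01% and 4.68% of all genes). Median-of-ratios scaling gave 3 and 1 there. Aldh1a1, another enzyme that makes retinoic acid, had 43.4 ± 0.557 FPKM at D12 and 5.34 ± 0.277 FPKM at D10 (log2 fold change 2.81 ± 0.13, limma adjusted p = 1.19e-08), on a day when Aldh1a2 was at its lowest. Rdh10, which oxidises retinol to retinal in the embryo, had 11.9 ± 0.914 FPKM at D12 and 5.09 ± 0.452 FPKM at D10, and Rarb rose in the same step. The coactivator Ncoa2 had 39.0 ± 0.297 FPKM at D12 and 12.7 ± 0.317 FPKM at D10. Dhrs9, a dehydrogenase of retinol, had 0.276 ± 0.0324 FPKM at D12 and 2.49 ± 0.161 FPKM at D10.

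Against D0, 18 of the 42 were higher and 3 lower at D8 (40.6% and 11.8% of all genes), 19 and 4 at D10 (39.1% and 13%), and 14 and 4 at D12 (38% and 13.8%), and in riPSC 13 were higher and 8 lower (40.1% and 13%). The split depended on the scaling: median-of-ratios scaling gave 15 and 7 at D8, 11 and 9 at D10, 13 and 5 at D12, and 11 and 11 in riPSC. The coactivator Ncoa3 had 20.4 ± 1.18 FPKM in riPSC and 1.28 ± 0.460 FPKM in D0. Against riPSC, 12 were higher and 6 lower at D12 (16.7% and 19.8% of all genes). Adh1 had 103 ± 9.57 FPKM at D12 and 0.131 ± 0.0138 FPKM in riPSC, and Aldh1a1 was listed at 0 in both riPSC libraries. Cdx1, a caudal homeobox gene that retinoic acid and Wnt signals induce, had 0.0346 and 0 FPKM at D12, against 14.1 and 15.2 FPKM in riPSC (limma adjusted p = 4.4e-12). In riPSC against mESC a single gene was called higher and none lower (1.84% and 1.2% of all genes): Stra8, a germ cell gene named for its response to retinoic acid. It had 4.37 and 5.13 FPKM in riPSC, against 1.22 and 1.49 FPKM in mESC (log2 fold change 1.29 ± 0.10, limma adjusted p = 2.53e-06).

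**Figure D4:**
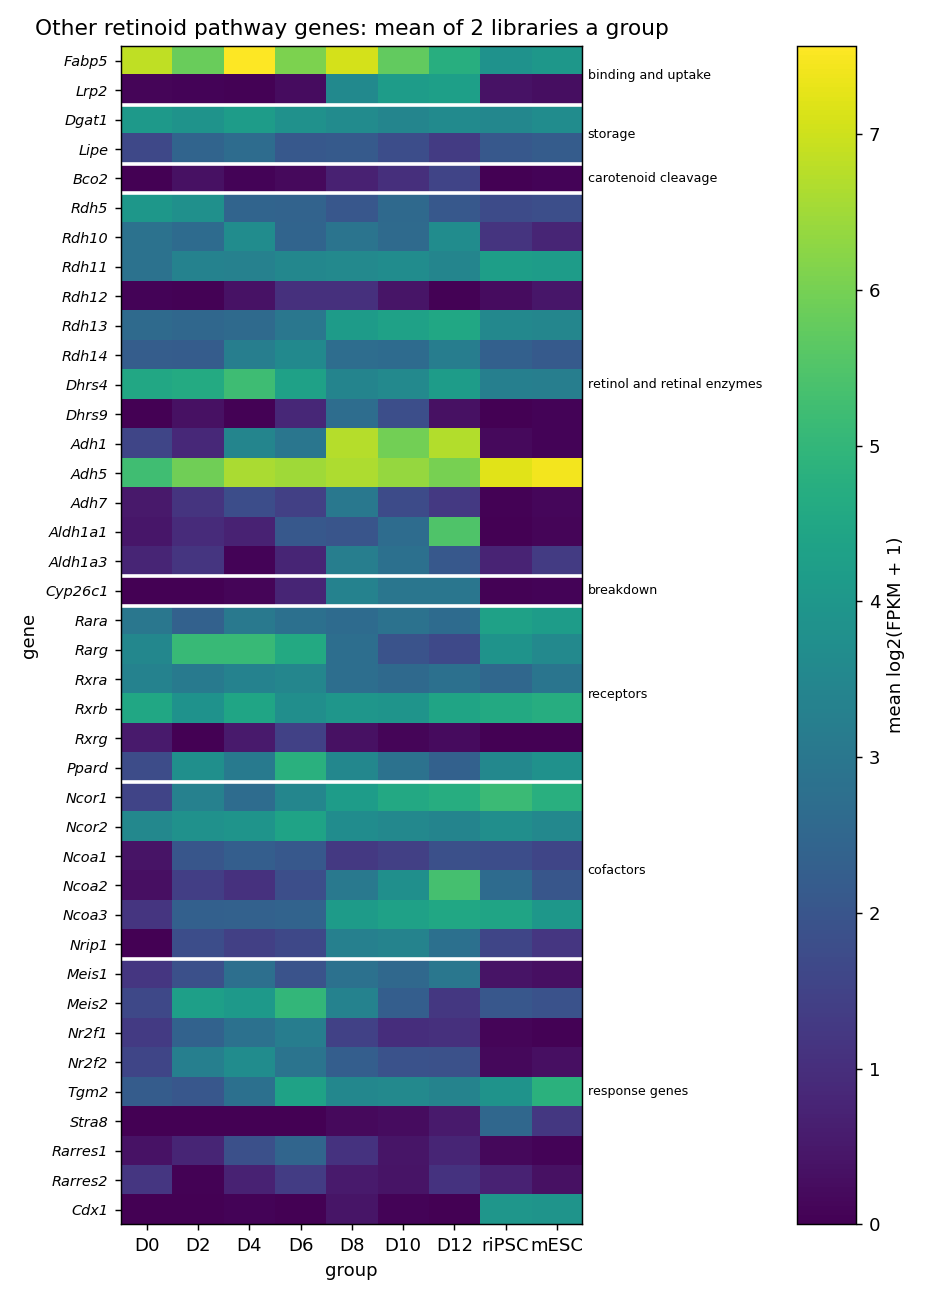
Mean log2(FPKM + 1) of 2 libraries a group for 40 of the 42 other pathway genes tested, ordered by role, with white lines between roles. Adh1 and Lrp2 were high from D8 to D12, Aldh1a1 was highest at D12, and Cdx1 and Stra8 were highest in riPSC or mESC.

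The genes whose 9 group means of log2(FPKM + 1) followed each of the 9 most closely are given as a description, by Pearson's r over the 9 groups, which share their libraries. Nearest to Crabp1 was Cthrc1 (r = 0.99), a secreted protein of fibroblasts, with Mrgprf and Gxylt2 next. Nearest to Crabp2 were Tbx2 (r = 0.99), Vash2 and Hand2; Tbx2 and Hand2 encode transcription factors of limb and heart mesenchyme. Nearest to Dhrs3 were Hoxb4 (r = 0.995) and Nr2f2 (r = 0.99), then AC132253.9. Nearest to Cyp26b1 were Pam (r = 0.99), Lipa and Fzd1, and to Cyp26a1 Rcsd1 (r = 0.99), AU041133 and Chst15, which peaked at D12 at no more than 25.8 ± 0.641 FPKM. Stra6 was nearest to Cgnl1 (r = 0.98), Arsb and Ptpn9, Rbp4 to 2610307P16Rik (r = 0.98), Trim46 and Akr1c18, Aldh1a2 to Clip3 (r = 0.98), Fez1 and Tpt1-ps3, and Rarb to 1700088E04Rik (r = 0.99), Rab3a and Matn2. Among the 9 themselves the closest pairs were Crabp1 with Crabp2 (r = 0.94), Stra6 with Cyp26b1 and Dhrs3 with Rarb (r = 0.93 for each). Cyp26a1 stood apart from the binding proteins, with r = -0.02 to Crabp1 and -0.23 to Crabp2.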

How the data were processed

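Per the submitters' processing notes, fastp 0.20.1, HISAT2 2.2.1 and StringTie 2.0 were used with mm10; the annotation release is not given in the sources used here. Reads were 150 bp long, per the labels. The values the authors deposited, 1 file per library, were taken as FPKM from their range and steps, and were used as deposited. Symbols and coordinates came from GENCODE annotation of GRCm38 (55141 of 55401 identifiers matched).

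A gene entered the test where 2 or more libraries reached an FPKM of 1, and was analysed as log2(FPKM + 1). A linear model with a term for each group was fitted to 18 libraries in limma 3.58.1 (R 4.3.3; 9 residual degrees of freedom, eBayes without trend), in 14 comparisons, with two-sided p-values adjusted within each over 16439 genes. The procedure was tested on simulated data. All 9 genes are named; of the other pathway genes, up to 4 called ones per comparison by size of change, and per gene the 3 most alike. A few that the rule takes are not reported here. The genes and lists were chosen with earlier results of these data known. Depth is known only as the relative step per read, which may not measure depth in D2 replicate 2. Replicate numbers do not pair samples in the labels, and same-numbered deviations correlated between -0.23 and 0.27. Alternatives covered the pseudocount, filter, scaling, length trend, eBayes trend, fold threshold, libraries fitted, replicate block and leaving out each library; a fit without D0, D2 and D4 was added after the data were seen. Counting tools were not used, since the files hold no counts.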

Additional observations from a re-analysis of the deposited data

How the results depend on the processing

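Of 1935 recomputed fold changes of the 9 genes, 1843 kept their side of the threshold, 50 lost a call and 41 gained one. A further 1 turned direction: Rarb at D8 against D0, -0.068 with quantile normalization instead of 1.13. Direction was checked only where the main or the recomputed value was called. Uncalled values that changed sign are among the 1843. Of 425 recomputed counts of called genes, 407 stayed within 1.5 times. Many of the 425 left out a library of neither group compared, which leaves the fold changes as they were. The 407 therefore overstate how stable the counts are. With a fit of only the libraries compared, 0 of the 9 were called at D2 against D0 (8 otherwise) and 0 at D4 against D2 (2 otherwise); other pathway genes called were 0 instead of 12 at D2 against D0, 8 instead of 18 at D4 against D0, and 3 instead of 8 at D4 against D2, where median-of-ratios scaling gave 5. Without a fold threshold, 6 were called at D4 against D2, 7 at D6 against D4 (4 otherwise), 6 at D12 against D10 (1 otherwise) and 2 in riPSC against mESC (0 otherwise). Of all 16439 genes, that looser rule called 5142, 7862, 5822 and 2076 in these comparisons. A pseudocount of 0.1 gave 4 at D12 against D10 (2721 of all genes) and 2 in riPSC against mESC (901 of all genes). One of 5 gave 1 at D4 against D2 (620 of all genes) and 0 at D12 against D10 (607 of all genes). Quantile normalization gave 7 in riPSC against D0 (4 otherwise), where it called 7200 of all genes, and 3 at D12 against D10, where it called 1855. Leaving mitochondrial genes out of the scaling gave 5 at D12 against D10, with 1966 of all genes called. Leaving out 1 library at a time gave 1 to 3 at D4 against D2, 1 to 4 at D12 against D10 and 0 to 1 in riPSC against mESC. At D12 against D10 there were 3 without D10 replicate 1, 2 without D10 replicate 2 and 4 without D12 replicate 1. With the replicate number as a block (replicate block), counts and calls of the 9 were the same, for example 8 at D2 against D0. Median-of-ratios scaling lowered the all-gene median at D8 against D0 to 0.32, from 0.68. Depth limits the lowest values: D0, riPSC and mESC levels near 0 cannot separate absence from too few fragments.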
